A study of Mus musculus with 5 samples.

Results

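Pancreatic duct cells secrete a bicarbonate-rich fluid, and the 39 genes described here encode the channels, carriers, pumps, carbonic anhydrases and aquaporins of that step together with close relatives. The genes were taken by symbol from a list of duct transport genes. All 39 were listed in at least 1 of the deposited tables, which together hold 24148 symbols, and 38 were in all 5 tables. Of these 38, 27 had a mean of at least 1 and were tested. RNA had been sequenced from cells freshly sorted from the pancreas of C57BL/6 mice 2 to 4 months old, and the labels name no genetic change or treatment. The 2 groups were CD133(positive)CD71(negative), with 2 libraries, and CD133(high)CD71(low), with 3, a fraction that the series title links to colony-forming progenitor cells. Prom1 encodes CD133 and Tfrc encodes CD71, the transferrin receptor. The marker tag of the CD133(high)CD71(low) samples reads CD71 plus, not low, and their titles were followed. Separate mice or sorts behind the libraries of a group are not stated, so a p-value here covers the spread between libraries alone, and that spread may be technical.

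In textbook models of the duct, cytosolic carbonic anhydrase makes bicarbonate from carbon dioxide, and a sodium bicarbonate cotransporter brings in more across the basolateral membrane. Bicarbonate leaves at the apical side through the chloride channel CFTR and through chloride bicarbonate exchangers of the SLC26 family. Potassium channels keep the membrane voltage that drives this exit, the sodium pump keeps the sodium gradient, and water follows through aquaporins and between cells.

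Values are those deposited, taken to be RPKM (reads divided by transcript length in kilobases and by library depth), which is a scale per length, so levels of different genes can be set side by side. Depth inferred from the values was 19.8 to 41.7 M reads per library (M, 1000000). One library of CD133(high)CD71(low), library 3, has other gene models in its table and differed from its group: across genes its Pearson r was 0.957 with library 1 and 0.961 with library 2, while those had 0.996 with each other. A positive fold change means higher in CD133(high)CD71(low). It is given as a difference of mean log2(RPKM + 1), which understates changes of low genes. They were tested with limma, with Benjamini-Hochberg adjustment over 11769 genes and a threshold of 0.05. The groups differed in cell type markers. Summed RPKM of 12 duct epithelial markers was 3536 and 3756 against 5088, 5093 and 7216, and 10 of the 12 rose. All 12 endothelial markers fell (876.3 and 820.2 against 240.3, 149.2 and 81.6), as did the 12 tested of 13 leukocyte markers (1643 and 1610 against 68.1, 56.5 and 30.4). Of 8 tested mesenchymal markers 6 fell, of 4 Schwann cell markers 3 fell, of 10 endocrine markers 5 fell, and of 4 erythroid markers 3 rose. The 18 acinar markers, of which 0 passed in either direction, took 55.1% and 51.8% of the RPKM summed over the 16992 symbols common to all tables, against 48.3%, 48.9% and 26.8%. Of 7 adipocyte markers 1 was tested and fell, Fabp4, which endothelium also expresses. Of all genes 6.25% rose and 7.22% fell. The endocrine markers were mixed, with 8 negative and 2 positive fold changes. The positive ones, Ins1 (0.36) and Ins2 (0.26), did not pass. Without library 3 both were called higher (0.95 and 0.85, limma adjusted p = 0.00245 and 0.00142). In that fit 6 endocrine markers were lower, and 40.9% of all genes were higher and 12.2% lower. In such bulk libraries fewer cells of a type and less RNA per cell cannot be told apart. The sorting genes themselves were Prom1, at 45.8 and 48.8 against 72.8, 74.7 and 133.3 RPKM, and Tfrc, at 4.00 and 4.36 against 5.34, 6.84 and 12.2, and neither passed the test.

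Among the transport genes 6 rose in CD133(high)CD71(low) cells, namely Car2, Scnn1a, Kcnk5, Kcnk1, Kcnn4 and Fxyd3, and 1 fell, Car4. The other 20 did not pass. The 6 that rose are 22.2% of the 27 tested, against 6.25% of all genes that rose, and the 1 that fell is 3.70%, against 7.22%. The members were chosen with earlier results of these data known, so these shares are not a test of the set. The median log2 fold change was 0.47, against 0.31 over all genes. Groups did not overlap for 22 of the 27, or 81.5%, against 70.2% of all genes: CD133(high)CD71(low) lay above for 18, against 58.2% of all genes, and below for 4, against 12.0%. Library 3 was the highest of the 5 for 19 members, against 66.3% of all genes, and the lowest for 4, against 12.7%. With median-of-ratios scaling, which sets the typical gene level between libraries, 3 members rose and 2 fell, against 1.93% and 9.68% of all genes. Car2 (log2 fold change 0.50), Kcnk5 (0.53), Scnn1a (0.59) and Car4 (-1.63) kept their calls, and Slc12a7 was called lower (-0.60). Fxyd3 did not pass (0.90, adjusted p = 0.0633 by limma). Without library 3, 16 rose and 3 fell, against 40.9% and 12.2% of all genes, with medians of 0.38 and 0.20. Atp1b1, Slc9a3r1, Kcnq1, Car8 and Aqp5 were among the 16, though not called with all 5 libraries. The number of calls rests on single libraries. Without CD133(high)CD71(low) library 1, Fxyd3, Kcnk5 and Scnn1a were called higher and Car4 lower, against 0.753% and 6.63% of all genes. Without library 2 only Car4 was called, when 0.338% of all genes were higher and 4.75% lower. Without CD133(positive)CD71(negative) library 1 or 2, 0 members passed by limma. In those fits 0.00% and 0.00855% of all genes were higher and 1.34% and 1.32% lower, and 1567 and 2133 genes had an unadjusted p under 0.05.

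**Figure D1:**
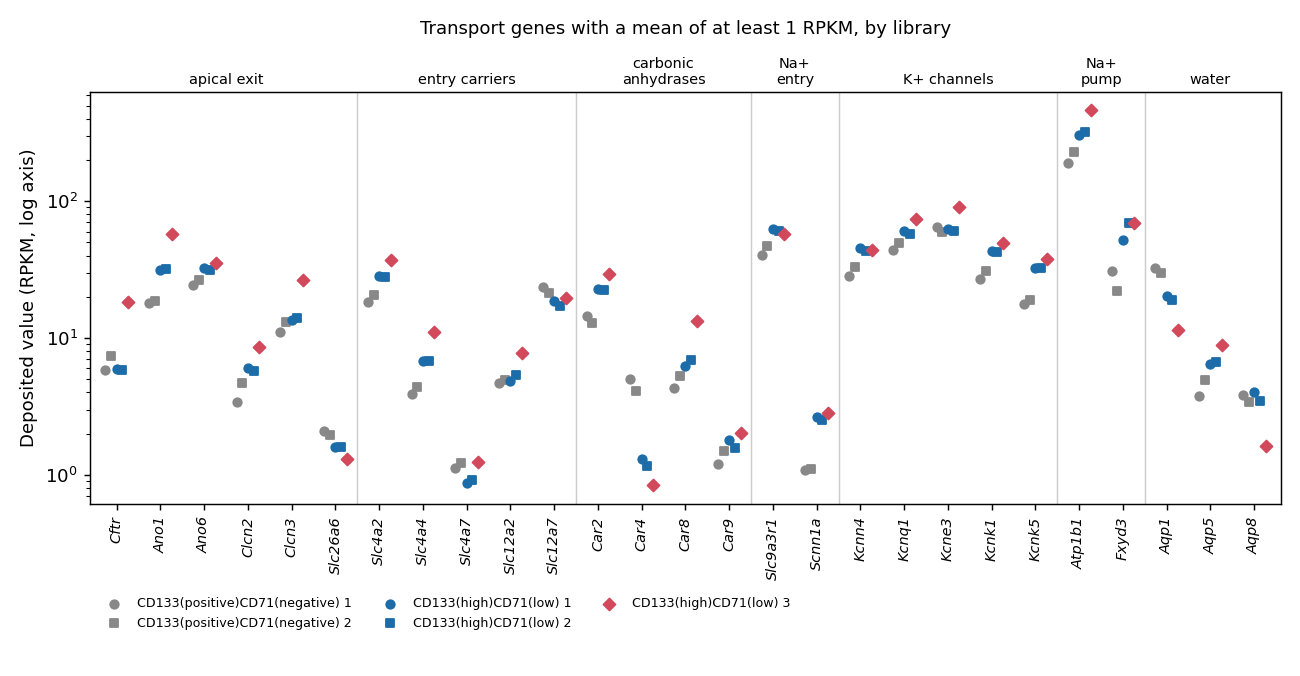
Deposited RPKM (log axis) of the 27 tested transport genes, ordered by transport step, with 1 point per library. Atp1b1 was the highest in every library, between 191.3 and 461.3, and library 3 (red diamonds) was the highest of the 5 for 19 genes.

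**Figure D2:**
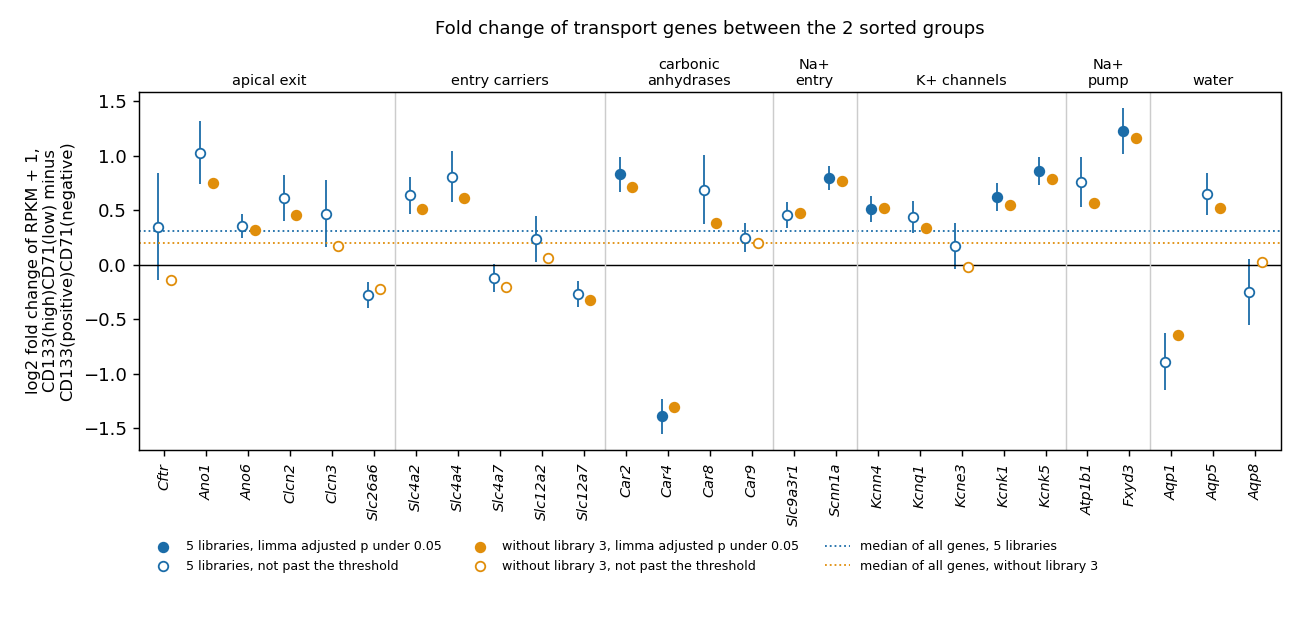
Log2 fold change of each tested gene, with bars of 1 SE for all 5 libraries (blue) and values without library 3 (orange). Filled points have a limma adjusted p under 0.05, and dotted lines are the medians of all genes, 0.31 and 0.20.

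The carbonic anhydrases moved apart. Car2, the cytosolic enzyme that supplies bicarbonate in duct cells, measured 14.4 and 12.8 RPKM in CD133(positive)CD71(negative) cells and 23.0, 22.5 and 29.6 in CD133(high)CD71(low) cells. All 3 CD133(high)CD71(low) libraries lay above both others. The means were 13.6 ± 1.08 (SD, n = 2) and 25.1 ± 3.95 (SD, n = 3), a difference of 0.83 on the log2 scale (SE 0.16, adjusted p = 0.0288 by limma). Car4, a form anchored to the outer cell surface by a lipid tail, went the other way, at 4.98 and 4.07 against 1.30, 1.17 and 0.844. Every CD133(high)CD71(low) library was below both others, and the means were 4.52 ± 0.640 and 1.10 ± 0.234 (log2 fold change -1.39 with an SE of 0.16, adjusted p = 0.00552 by limma). Car2 thus stood 2.89 and 3.15 times as high as Car4 in CD133(positive)CD71(negative) libraries, and 17.8, 19.3 and 35.1 times as high in CD133(high)CD71(low) libraries. This ratio does not depend on the scaling between libraries. The log2 ratio of Car4 to Car2, with a pseudocount of 1, differed by -2.22 between groups (exact permutation test, two-sided p = 0.2). That p doubles the one-sided value, and 0.2 is the smallest this form of the test can give with 2 libraries against 3.

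**Figure D3:**
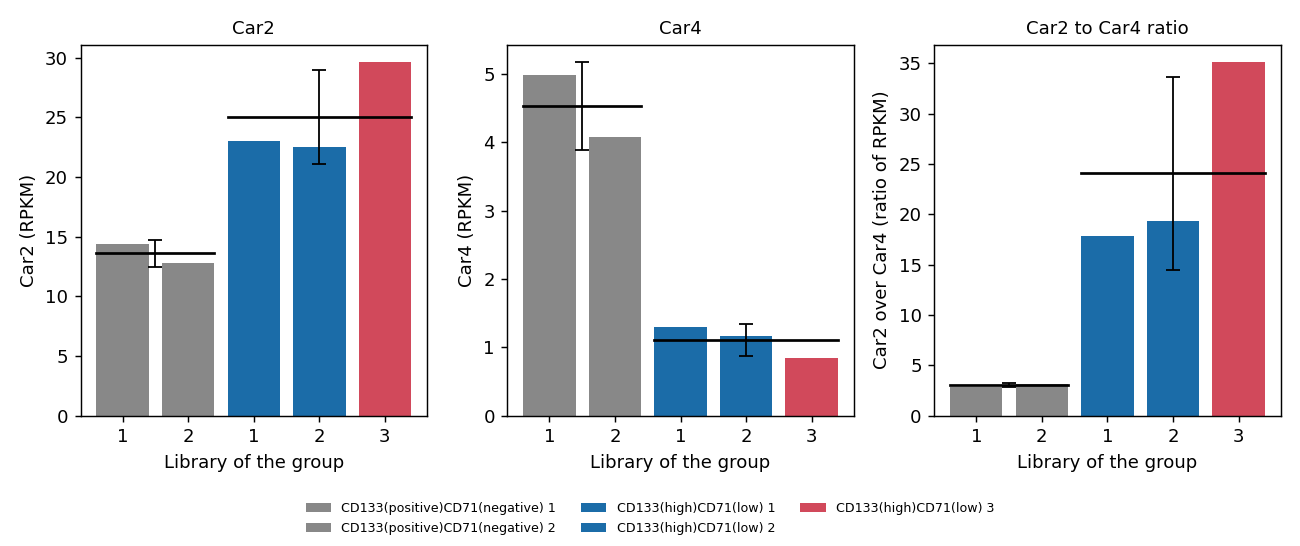
RPKM of Car2 and of Car4 and their ratio in each library (bars), with group means (black lines) and SD (error bars, n = 2 and n = 3). The ratio was 17.8 to 35.1 for CD133(high)CD71(low) and 2.89 and 3.15 for the other group.

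Car4 is also a known gene of capillary endothelium, and within CD133(high)CD71(low) it had the same order of libraries as the endothelial sum (1.30, 1.17 and 0.844 RPKM against sums of 240.3, 149.2 and 81.6), an order shared by the leukocyte and erythroid sums. No endothelial marker was at 0 in any library, and the part of endothelial cells in the fall of Car4 was not tested. Red cells carry Car2 as well. The summed erythroid markers measured 11.8 and 12.2 against 122.7, 118.3 and 32.5, so library 3, the highest for Car2, was the lowest of its group for that sum. The part of red cells in the rise of Car2 was not tested. On mouse genome mm10, Car2 lies on chromosome 3 (14886273 to 14900770) and Car4 on chromosome 11 (84957786 to 84966044).

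The other 5 carbonic anhydrase genes of the 39 did not pass or were too low to test. Car8, which lacks enzyme activity and binds an inositol trisphosphate receptor, measured 4.34 and 5.31 against 6.24, 6.93 and 13.4 (log2 fold change 0.69 with an SE of 0.32, adjusted p = 0.173 by limma). Car9, a surface enzyme induced by low oxygen, measured 1.20 and 1.49 against 1.80, 1.57 and 2.01. Groups did not overlap for either gene. Car12, Car14 and Car3 were all under 0.1 RPKM in each library. Car3, known from muscle and fat, was listed at 0 in both CD133(positive)CD71(negative) libraries and in CD133(high)CD71(low) library 2. Of the adipocyte markers besides Fabp4, Adipoq and Cfd were listed at 0 in every library but library 3, at 0.0185 and 0.0258. Plin1 was at 0.0346 and 0.0128 in CD133(high)CD71(low) libraries 2 and 3 and at 0 elsewhere. Retn was at 0.260 in CD133(positive)CD71(negative) library 2 and 0.0557 in CD133(high)CD71(low) library 2, and was not listed for library 3. Cidec and Lep were listed for no library.

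Promoter sequences are shown for 3 of the genes that passed, the lone one that fell (Car4), the potassium channel gene with the smallest adjusted p (Kcnk5) and the only one of the 5 with an entry that holds a searched motif (Kcnn4). Each is the 250 bases before the RefSeq start (GRCm38.p6), 5′ to 3′ on the gene's strand, with motif matches in capitals.
Car4, chr11:84957504-84957753, strand +: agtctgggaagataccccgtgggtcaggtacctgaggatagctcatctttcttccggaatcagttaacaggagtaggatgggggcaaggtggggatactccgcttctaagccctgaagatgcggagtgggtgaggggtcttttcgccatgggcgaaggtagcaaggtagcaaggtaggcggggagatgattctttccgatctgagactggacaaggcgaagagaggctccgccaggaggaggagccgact
Kcnk5, chr14:20181783-20182032, strand -: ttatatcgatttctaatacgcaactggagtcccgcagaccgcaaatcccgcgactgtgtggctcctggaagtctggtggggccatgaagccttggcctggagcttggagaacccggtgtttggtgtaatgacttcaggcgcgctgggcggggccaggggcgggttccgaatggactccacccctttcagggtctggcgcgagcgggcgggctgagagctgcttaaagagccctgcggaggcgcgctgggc
Kcnn4, chr7:24370013-24370262, strand +: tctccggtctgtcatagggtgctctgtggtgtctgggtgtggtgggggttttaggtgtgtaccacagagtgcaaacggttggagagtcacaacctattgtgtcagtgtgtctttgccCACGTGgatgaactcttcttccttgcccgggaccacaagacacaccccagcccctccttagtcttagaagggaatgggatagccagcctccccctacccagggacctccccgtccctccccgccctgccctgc
The motifs searched, on both strands, were the HNF1 core GTTAAT, the TATA box TATAAA and the E-box CACGTG. They occur in 6.43%, 12.4% and 6.02% of 32851 such windows of all genes, and in 2, 5 and 5 of 39 windows that matched 31 of the 39 transport genes. The capitals in Kcnn4 mark the E-box, while Car4 and Kcnk5 hold none of these letters in their windows. A match describes the sequence only.

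Among the potassium channels 3 of 5 tested members rose (60.0%, against 6.25% of all genes). When libraries were scaled to epithelial genes (below), 0 of the 5 were higher and 2 lower, against 0.236% and 46.4% of all genes. Kcnk5, a two-pore channel opened by alkaline pH (TASK-2), measured 17.7 and 19.1 RPKM against 32.4, 32.6 and 38.1. The groups were well apart, with a difference of 0.86 on the log2 scale (SE 0.13, adjusted p = 0.0131 by limma). Kcnk1, another channel of the two-pore family, measured 27.1 and 30.7 against 42.9, 42.7 and 49.2 (log2 fold change 0.62 with an SE of 0.13, adjusted p = 0.0357 by limma). Kcnn4, the intermediate-conductance channel opened by calcium, measured 28.3 and 33.2 against 45.3, 43.3 and 44.2 (log2 fold change 0.51 with an SE of 0.12, adjusted p = 0.0488 by limma). Its 3 CD133(high)CD71(low) values were close to each other, and library 3 did not stand out. The calls of Kcnk1 and Kcnn4 depended on scaling. Kcnk1 did not pass with median-of-ratios (0.29, adjusted p = 0.147 by limma) or quantile scaling (0.33, adjusted p = 0.0740). Kcnn4 did not pass with median-of-ratios (0.18, adjusted p = 0.499), quantile (0.24, adjusted p = 0.246) or acinar-removed scaling (0.32, adjusted p = 0.183), nor among genes with a mean of at least 5 (adjusted p = 0.0562, all by limma). The pore subunit gene Kcnq1 and the gene of its partner Kcne3, which keeps that channel open, were the most abundant of the group. Kcnq1 measured 43.8 and 49.7 against 60.7, 57.6 and 73.5 (limma adjusted p = 0.108), and Kcne3 measured 65.1 and 59.7 against 62.7, 60.1 and 91.3 (limma adjusted p = 0.537). Kcne3 groups overlapped, and its level exceeded that of Kcnq1 in every library. Kcnma1, the large-conductance channel opened by calcium and voltage, stayed between 0.208 and 0.461, and the inward rectifier genes Kcnj15 and Kcnj16 stayed under 0.1. Kcnk5 lies on chromosome 14 (20140057 to 20181809), Kcnk1 on chromosome 8 (125995170 to 126030685) and Kcnn4 on chromosome 7 (24370263 to 24386690).

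Sodium entry and the sodium pump gave 2 of the rises (1 of 2 tested members in each, against 6.25% of all genes). Scnn1a, the alpha subunit of the epithelial sodium channel, measured 1.09 and 1.11 RPKM against 2.63, 2.52 and 2.83, a low level that differed little within groups. Its log2 fold change was 0.80 (SE 0.11, limma adjusted p = 0.0114), with means of 1.10 ± 0.0157 (SD, n = 2) and 2.66 ± 0.155 (SD, n = 3). Fxyd3, a small membrane protein that modulates the pump, measured 30.7 and 22.2 against 51.6, 69.2 and 69.2 (log2 fold change 1.23 with an SE of 0.21, adjusted p = 0.0194 by limma). This was the largest log2 fold change of the tested members in the upward direction, and the groups did not overlap. Exons of Fxyd3 overlap those of Lgi4 on the opposite strand. Exons of Atp1b1, Slc4a2, Kcnk1, Kcnq1, Kcne3, Cftr, Ano6, Clcn2, Car9, Car14, Kcnj15 and Kcnma1 likewise overlap other genes. The sources used here do not say whether counting used strand, so the values of these genes are uncertain to that extent. Atp1b1, the beta subunit of the pump, measured 191.3 and 229.2 against 306.2, 318.3 and 461.3 (log2 fold change 0.76 with an SE of 0.23, adjusted p = 0.0824 by limma). Fxyd2, the gamma subunit best known from kidney, was scarce at 0.501 and 0.541 against 0.279, 0.174 and 0.0377. Slc9a3r1, a scaffold that holds CFTR and the apical exchanger in place, measured 40.6 and 46.9 against 62.5, 60.3 and 58.0 (limma adjusted p = 0.0659). The exchanger gene itself, Slc9a3, was at 0.0315 and 0 in CD133(positive)CD71(negative), listed at 0 in libraries 1 and 2 of CD133(high)CD71(low) and not in the table of library 3.

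No gene grouped under apical exit passed with all 5 libraries (0 of 6 tested by limma, of which 3 had an unadjusted p under 0.05, against 36.7% of all genes). Cftr measured 5.87 and 7.36 RPKM against 5.95, 5.84 and 18.2. Libraries 1 and 2 of CD133(high)CD71(low) were close to the lower value of the other group, and library 3 alone was high, at 3.08 times their mean. Over all tested genes the median of that ratio was 1.23, and 1.93% of genes had one at least as large as Cftr. The log2 fold change was 0.35 (SE 0.49, limma adjusted p = 0.566), and -0.14 without library 3 (limma adjusted p = 0.306). Ano1, a chloride channel opened by calcium, measured 18.1 and 18.6 against 31.2, 31.7 and 57.9 (log2 fold change 1.03 with an SE of 0.29, adjusted p = 0.0727 by limma). The groups were apart, and without library 3 it passed (log2 fold change 0.75, limma adjusted p = 7.08e-05). Ano1 exceeded Cftr in every library. Ano6, a lipid scramblase and ion channel, measured 24.6 and 26.4 against 32.6, 31.5 and 35.1, and the voltage-gated chloride channel gene Clcn2 3.43 and 4.67 against 6.05, 5.70 and 8.54. Both passed without library 3 (limma adjusted p = 0.0111 and 0.0129). Clcn3, counted in this group though an exchanger of endosomes, measured 11.1 and 13.2 against 13.5, 13.9 and 26.5.

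Of the apical SLC26 exchangers Slc26a6 was the most abundant, at 2.10 and 1.96 RPKM against 1.59, 1.59 and 1.31. All CD133(high)CD71(low) libraries were below both others, without passing (log2 fold change -0.28 with an SE of 0.12, adjusted p = 0.153 by limma). Slc26a3 was at most 0.0384 and Slc26a9 at most 0.187 in any library.

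On the deposited scale the carriers grouped under entry also gave no call over 5 libraries (0 of 5 tested by limma, 2 with an unadjusted p under 0.05, against 36.7% of all genes). The group also holds Slc12a7, a potassium chloride cotransporter rather than an entry carrier. Its members differed in direction. Slc4a4, the sodium bicarbonate cotransporter of the basolateral membrane, measured 3.91 and 4.35 RPKM against 6.78, 6.83 and 11.0 (log2 fold change 0.81 with an SE of 0.23, adjusted p = 0.0724 by limma). Slc4a2, the basolateral chloride bicarbonate exchanger, measured 18.4 and 20.5 against 28.4, 27.9 and 37.4 (log2 fold change 0.64 with an SE of 0.17, adjusted p = 0.0618 by limma). Both had groups that did not overlap, and both passed without library 3 (limma adjusted p = 0.000729 and 0.00135). In that fit 40.9% of all genes were higher and 12.2% lower. With all 5 libraries both passed with acinar-removed scaling (limma adjusted p = 0.0465 and 0.0399), and Slc4a4 with quantile scaling (limma adjusted p = 0.0260). Slc12a7, a potassium chloride cotransporter, measured 23.4 and 21.4 against 18.7, 17.0 and 19.7 (limma adjusted p = 0.168), below the other group in all 3 libraries. It was called lower without library 3 (limma adjusted p = 0.0173). With all 5 libraries it was called lower with median-of-ratios (-0.60, adjusted p = 0.0367) and quantile scaling (-0.56, adjusted p = 0.0351, both by limma). The chloride loader Slc12a2 (NKCC1) measured 4.69 and 4.97 against 4.83, 5.35 and 7.82, and the sodium bicarbonate cotransporter gene Slc4a7 1.13 and 1.23 against 0.867, 0.921 and 1.24. Groups overlapped for both. Slc4a11 was at most 0.135 and Slc4a5 at most 0.0197.

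The aquaporins did not move together, and 0 of 3 passed by limma (2 had an unadjusted p under 0.05, against 36.7% of all genes). Aqp1, found in duct cells, red cells and endothelium, measured 32.5 and 30.0 RPKM against 20.4, 18.9 and 11.4 (log2 fold change -0.89 with an SE of 0.26, adjusted p = 0.0763 by limma), and it passed without library 3 (-0.64, limma adjusted p = 0.000321). Its 3 CD133(high)CD71(low) values were all below the other group. They had the same order as the endothelial, leukocyte and erythroid sums, and the part of those cells in its level was not tested. Aqp5, an apical channel of secretory epithelia, measured 3.74 and 4.97 against 6.51, 6.72 and 8.96 (limma adjusted p = 0.0788). It too passed without library 3 (0.52, limma adjusted p = 0.00606), when 40.9% of all genes were higher and 12.2% lower. Aqp8, the water channel of acinar cells, measured 3.86 and 3.43 against 4.00, 3.49 and 1.62. It was lowest in library 3, where acinar markers took 26.8% of the RPKM summed over the common symbols, and the part of acinar RNA in its level was not tested.

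Since the groups differed in the levels of epithelial marker genes, each library was also scaled to the geometric mean of Epcam, Cdh1, Krt8, Krt18 and Krt19, which was 160.6 and 172.9 RPKM against 288.8, 282.7 and 316.8. On this scale 1 transport gene was higher in CD133(high)CD71(low) cells and 8 lower, against 0.236% and 46.4% of all genes, and the median log2 fold change was -0.29, against -0.40 over all genes. Of the 6 genes that rose on the deposited scale, Scnn1a was again called higher, at 0.677% and 0.642% of the epithelial level against 0.912%, 0.891% and 0.892% (log2 fold change 0.29, limma adjusted p = 0.0453). The other 5 did not pass. Kcnk5 measured 11.0% and 11.1% of the epithelial level against 11.2%, 11.5% and 12.0%, and Car2 8.95% and 7.43% against 7.98%, 7.97% and 9.35%. Fxyd3 measured 19.1% and 12.8% against 17.9%, 24.5% and 21.8%. Groups overlapped for Car2 and Fxyd3 and lay close together for Kcnk5. Kcnn4 measured 17.7% and 19.2% against 15.7%, 15.3% and 13.9%, and Kcnk1 16.9% and 17.8% against 14.8%, 15.1% and 15.5%. For both the CD133(high)CD71(low) libraries lay below the other group, the reverse of the deposited scale, without passing (adjusted p = 0.0653 and 0.132 by limma).

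The 8 genes called lower relative to epithelial genes were Car4, Aqp1, Slc12a7, Slc26a6, Slc4a7, Kcne3, Kcnq1 and Ano6. Car4 measured 3.10% and 2.35% of the epithelial level against 0.449%, 0.414% and 0.266% (log2 fold change -1.97, limma adjusted p = 0.0011). Aqp1 measured 20.2% and 17.3% against 7.05%, 6.68% and 3.61% (log2 fold change -1.68, limma adjusted p = 0.0105). Slc12a7 measured 14.6% and 12.4% against 6.48%, 6.00% and 6.22% (log2 fold change -1.06, limma adjusted p = 0.00204), and Slc26a6 1.31% and 1.13% against 0.552%, 0.563% and 0.414%. In each of these 4 genes the groups were far apart and library 3 did not stand out upward. Cftr, at 3.66% and 4.26% against 2.06%, 2.06% and 5.73%, was lower in libraries 1 and 2 and higher in library 3, and did not pass (limma adjusted p = 0.506).

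**Figure D4:**
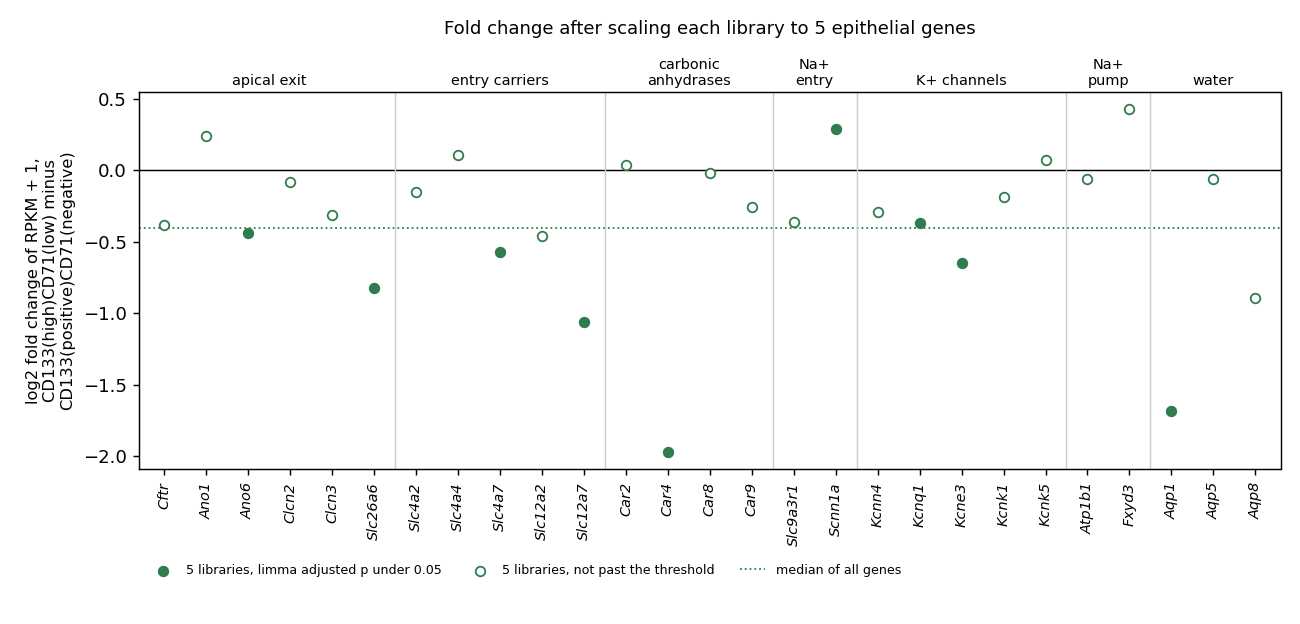
Log2 fold change of each tested transport gene after every library was scaled to the geometric mean of 5 epithelial genes. Filled points have a limma adjusted p under 0.05, 1 above and 8 below zero, and the dotted line is the median of all genes, -0.40.

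Related transport genes outside the 39 were taken from 9 lists that hold 92 symbols, of which 79 were in all tables and 51 were tested. Of these 3 rose (5.88%, against 6.25% of all genes) and 8 fell (15.7%, against 7.22%). The median log2 fold change was 0.25, against 0.31 over all genes. These lists, too, were chosen with earlier results of these data known. The risen genes were P2ry2, a receptor through which luminal ATP stimulates secretion (6.68 and 8.32 RPKM against 14.3, 14.6 and 14.0, limma adjusted p = 0.0153), Ano9 (limma adjusted p = 0.0328) and Slc12a8 (limma adjusted p = 0.0465). The 4 falls with the smallest p were Fxyd5 (28.6 and 23.4 against 4.47, 2.54 and 2.03), Slc26a10, Clic4 and Aqp7. Slc26a10 (group means 9.44 and 0.776) and Aqp7 (2.20 and 0.389) reached the mean of 1 only through CD133(positive)CD71(negative). So did Kcnk6 (2.68 and 0.672), another of the falls, named after its values were seen. The filter thus admitted these genes because they were high in that group, and the 15.7% that fell includes them. Chosen after its values were seen, the cytosolic carbonic anhydrase gene Car7 fell from 19.6 and 16.0 RPKM to 6.48, 4.06 and 2.56 (log2 fold change -1.87 with an SE of 0.32, adjusted p = 0.0209 by limma). Car7 was above Car2 in both CD133(positive)CD71(negative) libraries and below it in all 3 CD133(high)CD71(low) libraries. The secretin receptor gene Sctr, also chosen after its values were seen, measured 5.28 and 6.19 against 7.12, 6.71 and 8.29 and did not pass (limma adjusted p = 0.173).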

How the data were processed

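RNA-seq libraries of sorted mouse pancreas cells were grouped by title. Library 3 is the CD133(high)CD71(low) sample without a number in its title. The authors deposited a table of values by gene symbol for each library. Partek and mm10 are named per the submitters' processing notes. Aligner, annotation, filters and unit: not given in the sources used here. The deposited values were read as RPKM because low values times transcript length lay near whole multiples of 1 step per library: 54.5% to 59.1% were within 0.05 reads of a whole number, where chance gives 10.0%. Counts could not be recovered from this share, and no count test was run. The steps gave the depths. The row of library 3 that names no gene (74.2 M alignments) was left out.

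The 16992 symbols common to all tables were joined. Values were transformed as log2(RPKM + 1), genes with a mean of at least 1 were kept, and groups were compared with limma 3.58.1 in R 4.3.3 (trended empirical Bayes). The fit was tested on simulated data. The ratio of Car4 to Car2 used an exact permutation test (scipy 1.17.1). Alternatives were median-of-ratios, quantile, epithelial reference and acinar-removed scaling, a pseudocount of 0.1, no filter, a minimum mean of 5, leaving out each library, and a replicate block. All transport genes are named, and of related genes those called, up to 4 in each direction with the smallest adjusted p. Members and lists were chosen with earlier results of these data known. Positions are from GENCODE vM21 (mm10) and promoters from RefSeq (GRCm38.p6).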

Additional observations from a re-analysis of the deposited data

How the results depend on the processing

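Of the 27 tested transport genes, 6 were called higher and 1 lower, and these counts moved with nearly every choice. With each library left out in turn the number higher ran from 0 to 16 and the number lower from 0 to 3, the median log2 fold change from 0.35 to 0.61, and the counts over all genes from 0 to 4785 higher and from 154 to 1425 lower. Without either CD133(positive)CD71(negative) library, where the lone library is assumed to vary like the others, 0 of the 7 calls remained. The Car4 to Car2 log2 ratio ran from -2.34 to -2.01, and was -2.82 with a pseudocount of 0.1. A pseudocount of 0.1 kept all 7 calls. With no filter 1 call was added, so 7 of 38 members were higher and 1 lower, and the median was 0.25. Over all genes 958 of 16887 were then higher and 1729 lower, with a median of 0.18. With a mean of at least 5, which removes Car4, 4 of 21 members were higher and 0 lower. Over all genes 505 of 7839 were then higher and 315 lower.

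Median-of-ratios scaling took the median of all genes from 0.31 to 0.02. It gave 3 of 27 members higher and 2 lower (Car4 and Slc12a7) with a median of 0.15. Over all genes 227 of 11785 were higher and 1141 lower. Slc12a2 (-0.05) and Kcne3 (-0.17) changed sign. Quantile normalization gave 6 of 27 members higher and 2 lower and a median of 0.24, with Slc4a7 at 0.00 and Kcne3 at -0.06. Over all genes 841 of 11769 were higher and 1037 lower, with a median of 0.13. Removing acinar genes gave 7 of 27 members higher and 1 lower, with a median of 0.28 and Kcne3 at -0.03. Over all genes 584 of 11751 were higher and 1006 lower, with a median of 0.14. Under epithelial reference scaling 1 member was higher and 8 lower, the median was -0.29, and 28 of all genes were higher and 5505 lower. Turned negative were Cftr (-0.38), Ano6 (-0.44), Clcn2 (-0.08), Clcn3 (-0.31), Slc4a2 (-0.15), Slc12a2 (-0.46), Car8 (-0.02), Car9 (-0.26), Slc9a3r1 (-0.36), Kcnn4 (-0.29), Kcnq1 (-0.37), Kcne3 (-0.65), Kcnk1 (-0.19), Atp1b1 (-0.06) and Aqp5 (-0.06). Dividing by genes that themselves rose lowers every value by construction.

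Without library 3, Cftr (-0.14), Kcne3 (-0.02) and Aqp8 (0.03) changed sign. With median-of-ratios scaling as well, 12 of 27 members were higher and 6 lower with a median of 0.19. Over all genes 1446 of 11713 were higher and 2122 lower, with a median of 0.00. Cftr was then called lower (-0.34, limma adjusted p = 0.0274), with Clcn3 at -0.05, Slc12a2 at -0.13 and Kcne3 at -0.25. With the replicate number as a block in the 4 numbered libraries, 16 of 27 members were higher and 3 lower, as without the block. Over all genes 5275 of 11695 were higher and 1543 lower. Cftr was at -0.14, Kcne3 at -0.02 and Aqp8 at 0.03. Same-numbered libraries did not deviate together (r = -0.024 across genes). With 2 pairs, this r cannot show whether they shared mice or a sort. The cause of these moves was not tested. Values under 0.1 RPKM rest on very few reads.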
